A study of Mus musculus with 9 samples.

Results

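The genes described here serve protein folding in the endoplasmic reticulum (ER) and the unfolded protein response, the signalling that adjusts folding capacity to load. They are 31 listed symbols, and each of them was present among the 23457 rows of the count table and passed the filter on low counts. RNA came from the hearts of adult mice on the C57BL/6J background. There were 5 wild-type (WT) hearts and 4 hearts labelled as germline Parkin knockouts (KO), 1 library per heart, with no treatment named in either group. Parkin is a ubiquitin ligase known for its part in the removal of damaged mitochondria, and a germline knockout lacks it in all cells and not in cardiomyocytes alone. The protocol names ventricular apices while the tissue label names the whole heart. The sources used here give neither sex nor litter, so p-values measure the spread between these hearts. KO stands for the label throughout, and every direction rests on the labels.

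The counts of the targeted gene, Park2 in the table, did not tell the groups apart. It had 74, 14, 8, 44 and 16 reads in WT hearts 1 to 5 and 82, 53, 54 and 37 in KO hearts 1 to 4. Scaled to library size this was 3.32, 4.86, 2.37, 3.09 and 1.86 CPM (reads scaled to a common library size) in wild type and 3.895, 3.19, 2.73 and 2.65 CPM in the labelled knockouts. The ranges overlapped and Park2 was not lower in the labelled knockouts (log2 fold change 0.059 ± 0.26, SE, edgeR adjusted p = 0.863). The count covers the whole gene and the deleted part is not stated in the labels, so reads from any part that remains cannot be set apart, and the counts give the genotype labels no support.

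Proteins bound for secretion or for membranes enter the ER through the Sec61 channel and fold there with the help of Hsp70- and Hsp90-type chaperones, sugar-binding chaperones and enzymes that form disulfide bonds. When unfolded proteins build up, the membrane sensors IRE1 (Ern1), PERK (Eif2ak3) and ATF6 start the unfolded protein response. IRE1 splices the mRNA of the transcription factor XBP1, ATF6 is itself cut into a transcription factor, and PERK slows translation. Both factors raise chaperones and the parts of ER-associated degradation, which pulls failed proteins back to the cytosol for the proteasome. In heart muscle the sarcoplasmic reticulum is a specialised part of this membrane system, and calreticulin and related proteins also bind its calcium.

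Of the 31 genes, 12 were higher and 4 lower in the labelled knockouts (edgeR's quasi-likelihood test, adjusted p below 0.05 after Benjamini-Hochberg adjustment over all 12640 tested genes). That is 51.6% of the genes, where 51.4% of all tested genes were called, so the share is close to the background. Among all tested genes 26.2% were called higher and 25.2% lower. The median log2 fold change of the 31 was 0.15, beside -0.0059 over all tested genes. The co-chaperone Dnajb11, the disulfide enzymes Pdia6 and Creld2, the degradation factors Derl1 and Derl2 and the channel subunit Sec61b rose, and the transcription factor Xbp1 fell. These 7 (22.6% of the 31) kept their calls when any single heart was left out, when both shallow WT hearts were left out, and in the same ways with GC and length trends removed (below). The share of all tested genes that kept a call in all of these fits was not computed, so the 7 cannot be set against a background. The sensors Ern1, Eif2ak3 and Atf6 did not pass the test.

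Libraries differed in ways that touch these values. Assigned reads ran from 4415183 to 20827699 per heart, with WT hearts 2 and 3 the shallowest. Mitochondrially encoded genes took 32.6 to 58.2% of reads in WT and 10.04 to 15.4% in the labelled knockouts. Regressed on the GC content of the transcripts, the log2 deviations of a heart had slopes from -0.40 to -0.19 per 10 percentage points in WT and from 0.17 to 0.65 in the labelled knockouts, with no overlap, so that GC trend and genotype cannot be told apart by design. A second fit therefore removed trends with GC content and transcript length, and its values stand beside most of those from the first. In it 12 of the 31 genes were higher and 3 lower, where 18.6% and 19.5% of 12542 tested genes were called in those directions, and 13 genes (41.9%) passed both fits with 1 sign, beside 26.7% of all genes. Only with trends left in, 3 genes (Sdf2l1, Canx and Edem2) were called, beside 24.6% of all genes.

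Some of the promoters held the sequence through which the unfolded protein response is known to act. It is the ER stress response element (ERSE), spelled CCAAT, any 9 bases and CCACG, and bound by NF-Y at the CCAAT end and by ATF6 at the other. RefSeq promoter windows (GRCm38.p6, 250 bases before to 50 after the start) were found for 26 of the 31 genes. An ERSE, searched on both strands, was present in 8 of these 26 genes, where 0.137% of 27025 genes with a window held one. The related ERSE-II, ATTGG, any 1 base and CCACG, was present in Dnajb11 and Herpud1, and in 0.0444% of genes with a window. The UPRE core TGACGTGG, the known XBP1 element, was in none of the 26, beside 0.714% of genes. The 8 genes with an ERSE are shown because they hold the same element and yet had fold changes from -0.62 to 1.30. Each line gives the element with 14 bases on either side, in the direction of the gene, with the fixed bases in capitals (Hsp90b1 holds a second match).
Hspa5 (chr2:34772011-34772057, plus strand): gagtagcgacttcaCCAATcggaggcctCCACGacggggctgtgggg
Hsp90b1 (chr10:86705624-86705670, minus strand): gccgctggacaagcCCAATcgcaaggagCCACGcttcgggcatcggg
Dnajc3 (chr14:118937813-118937859, plus strand): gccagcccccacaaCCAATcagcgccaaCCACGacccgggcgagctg
Calr (chr8:84847061-84847107, minus strand): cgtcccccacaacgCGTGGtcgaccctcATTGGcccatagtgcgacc
Canx (chr11:50325786-50325832, minus strand): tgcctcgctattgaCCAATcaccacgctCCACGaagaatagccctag
Pdia6 (chr12:17266477-17266523, plus strand): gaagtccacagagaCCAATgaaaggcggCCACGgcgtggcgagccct
Creld2 (chr15:88819506-88819552, plus strand): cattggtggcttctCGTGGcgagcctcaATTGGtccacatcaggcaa
Syvn1 (chr19:6046518-6046564, plus strand): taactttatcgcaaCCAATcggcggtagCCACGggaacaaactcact

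In Calr and Creld2 the element reads as its reverse complement. The matches begin 44 bases before the start in Syvn1, 65 in Hspa5 and 212 in Hsp90b1. Of the 10 genes with an ERSE or ERSE-II, Pdia6, Creld2 and Dnajb11 rose in the counts, Calr and Canx fell, and the others were not called. Their median log2 fold change was 0.25, against 0.13 in the 16 genes with a window and no match, of which 6 rose and 2 fell. With trends removed the medians were 0.30 and 0.25. In that fit 4 of the 10 rose, with Hspa5 gained, and 1 fell, with Canx lost. Of the 16, 5 rose and 2 fell there. Over all tested genes 26.2% were called higher and 25.2% lower in the counts, and 18.6% and 19.5% with trends removed. A match describes letters in this window and no binding was measured.

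Levels between genes can be compared per length, in FPKM (fragments per kilobase, scaled to depth by the authors). In wild type Calr, the calcium-binding lectin chaperone calreticulin, was the highest of the 31 at 194 ± 31.2 FPKM (SD, n = 5). The next were the Hsp90-type chaperone Hsp90b1 at 61.1 ± 5.49, the Hsp70-type chaperone Hspa5 (BiP) at 54.6 ± 13.3, the degradation factor Herpud1 at 53.4 ± 12.9 and the disulfide isomerase P4hb at 44.3 ± 6.13. The spreads (mean ± SD) of Hsp90b1, Hspa5 and Herpud1 overlapped, as did those of Hspa5, Herpud1 and P4hb. The spread of P4hb lay below that of Hsp90b1. The oxidase Ero1l was lowest at 0.691 ± 0.345 FPKM, and of the sensors Ern1 was at 2.44 ± 0.581 and Eif2ak3 at 1.45 ± 0.291, while Atf6, at 10.96 ± 2.53, ranked 10 of 31. In the labelled knockouts Calr was again highest at 197 ± 16.95 FPKM (SD, n = 4), followed by Hspa5 at 98.4 ± 21.02, and the lowest was the mannosidase-like Edem1 at 1.39 ± 0.220. By mean FPKM, Dnajb9 ranked 20 in wild type and 28 in the labelled knockouts, and Sec61b ranked 21 and 12.

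**Figure D1:**
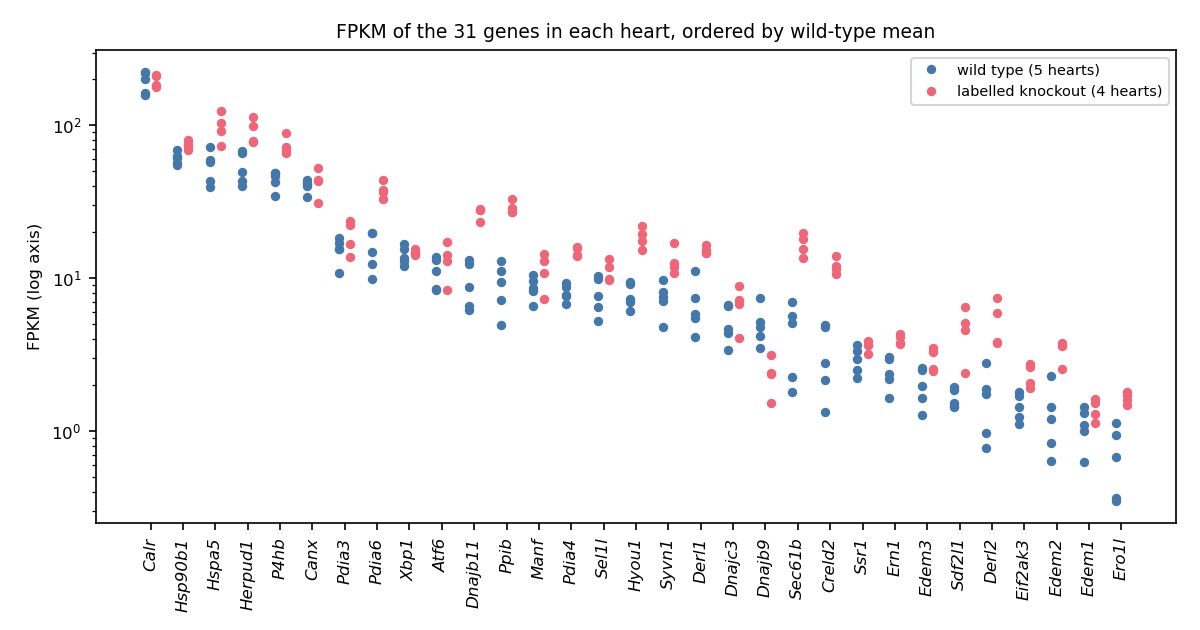
FPKM on a log axis for each of the 31 genes, ordered by the wild-type mean, with 1 point per heart (blue, 5 wild-type; red, 4 labelled knockout). Calr stands at the top in both groups and Ero1l at the bottom in wild type, and the FPKM scale is shifted upward in the labelled knockouts by a median of 0.44 log2 units over all tested genes.

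FPKM values were on average higher in the labelled knockouts: the median log2 change of 12637 genes was 0.44, with 53.6% of genes called by limma, 47.5% higher and 6.12% lower. Of the 31 genes, 18 were higher and 1 lower on this scale. After this shift was seen, each heart was also centred on its median, which gave 54.0% called, 25.4% higher and 28.6% lower, and 10 of the 31 genes higher and 4 lower. FPKM changes below are on the centred log2(FPKM + 1) scale unless called uncentred. In all, 11 genes (35.5%) had the same called direction in the counts, in the counts with trends removed and in centred FPKM, beside 25.9% of all genes.

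None of the 3 sensors was called in either count fit, and Xbp1, grouped with them, was called lower in both. In uncentred FPKM Ern1 and Eif2ak3 were called higher (limma adjusted p = 0.012 and 0.024), on the scale shifted upward as a whole, and in centred FPKM neither passed. Ern1, whose kinase and RNase domains start the splicing of Xbp1 mRNA, had 10.7, 9.71, 12.7, 11.7 and 11.03 CPM in WT hearts 1 to 5 and 10.97, 13.6, 12.8 and 12.3 in KO hearts 1 to 4. The groups overlapped, and the log2 fold change was 0.15 ± 0.14 (SE; edgeR adjusted p = 0.395). Eif2ak3, the kinase that phosphorylates the initiation factor eIF2α, had 6.90, 8.33, 6.81, 7.94 and 8.24 CPM in wild type and 9.03, 6.74, 9.35 and 7.73 in the labelled knockouts. These groups overlapped as well (0.11 ± 0.16, adjusted p = 0.587). Atf6 had 95.5, 95.7, 87.4, 97.8 and 107.9 CPM in wild type and 96.5, 77.6, 84.7 and 53.5 in the labelled knockouts. Only KO heart 4 stood far below the wild-type range. The difference did not pass (-0.31 ± 0.15, adjusted p = 0.095) and was 0.088 with trends removed (adjusted p = 0.597). Without KO heart 1 it passed in the first fit (-0.43, adjusted p = 0.028).

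Xbp1 is the transcription factor that IRE1 activates by removing a short intron. It lies at chr11:5520659-5525893 on the plus strand (GRCm38). Its counts came to 30.4, 41.3, 34.7, 34.9 and 37.0 CPM in wild type and 24.3, 23.9, 24.8 and 26.0 in the labelled knockouts. Every labelled knockout heart was below every wild-type heart. Xbp1 fell by 0.52 ± 0.12 on the log2 scale (edgeR adjusted p = 0.0026), by 0.76 with trends removed (adjusted p = 0.00030) and by 0.43 in centred FPKM (limma adjusted p = 0.0049). A gene count holds spliced and unspliced Xbp1 together, so the splicing was not measured. In uncentred FPKM, the scale shifted upward as a whole, Xbp1 changed by 0.061 and did not pass (limma adjusted p = 0.78). The cause of that shift was not tested.

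Chaperones and their co-chaperones split in both directions. Of 11, 4 rose (36.4%, beside 26.2% of all genes) and 3 fell (27.3%, beside 25.2%). With trends removed 4 rose (36.4%, beside 18.6%) and 2 fell (18.2%, beside 19.5%). Hspa5 encodes BiP, the main Hsp70 of the ER and the best-known target of the unfolded protein response. Its values were 162, 145, 146, 143.1 and 182 CPM in wild type and 224, 142.5, 201 and 192 in the labelled knockouts. KO heart 2 was the lowest of all 9 hearts, just under WT heart 4, while the other KO hearts were above every wild-type heart. The log2 fold change was 0.29 ± 0.14 and did not pass (edgeR adjusted p = 0.097). With trends removed the groups no longer overlapped and Hspa5 passed at 0.66 ± 0.13 (adjusted p = 0.0012). Without KO heart 2 it also passed in the first fit, at 0.40 (adjusted p = 0.025). Its centred FPKM change of 0.36 missed the threshold (limma adjusted p = 0.056).

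Hsp90b1, the ER form of Hsp90, which folds integrins and Toll-like receptors, had 138, 247, 229, 181 and 189 CPM in wild type and 144, 146, 170.0 and 170.1 in the labelled knockouts. WT hearts 2 and 3 were highest and WT heart 1 was lowest of all 9 hearts. The change was -0.32 ± 0.16 (edgeR adjusted p = 0.097) and 0.23 with trends removed (adjusted p = 0.278), so neither fit called it and the sign turned. Without WT heart 1 the first fit called it lower, at -0.43 (adjusted p = 0.016).

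Calr showed the same uneven wild-type group. It had 271, 609, 555, 358 and 371 CPM in wild type and 281, 265, 305 and 274 in the labelled knockouts. WT hearts 2 and 3 were far above the rest, and WT heart 1 lay within the knockout range. Calr fell by 0.62 ± 0.20 in the counts (edgeR adjusted p = 0.017) and by 0.61 with trends removed (adjusted p = 0.030). Without both shallow WT hearts it was -0.25 in the counts (adjusted p = 0.155) and -0.21 with trends removed (adjusted p = 0.241), and neither passed. With trends removed, the call was also lost in 6 of 9 fits that left out 1 heart (WT heart 2 or 3, or any KO heart; highest adjusted p = 0.079). Its centred FPKM change of -0.46 missed the threshold (limma adjusted p = 0.062).

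Canx, the membrane-bound partner of calreticulin in the lectin cycle, had 157, 266, 241, 184 and 185 CPM in wild type and 165, 148, 145 and 111 in the labelled knockouts. KO heart 4 was lowest, WT hearts 2 and 3 were highest, and the groups overlapped through WT heart 1. Canx was called lower in the counts (-0.54 ± 0.16, edgeR adjusted p = 0.013). With trends removed it stood at 0.081 (adjusted p = 0.676), and without both shallow WT hearts it was -0.31 and did not pass (adjusted p = 0.107).

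Dnajb9, the J-domain co-chaperone ERdj4, which holds IRE1 in its inactive state and takes part in degradation, had the largest fall of the 31. It lies at chr12:44205559-44210326 on the minus strand (GRCm38), and its transcript has the lowest GC content of the 31 at 40.6%. Reads per heart were few, from 39 to 119. It had 5.34, 13.5, 17.5, 6.95 and 10.5 CPM in wild type and 2.99, 2.95, 2.02 and 4.08 in the labelled knockouts. All labelled knockout hearts were below all wild-type hearts, and WT hearts 2 and 3 were again highest. Dnajb9 fell by 1.73 ± 0.32 on the log2 scale (edgeR adjusted p = 0.00045) and by 1.32 in centred FPKM (limma adjusted p = 0.0018). With trends removed the fall was 1.0 ± 0.32 (adjusted p = 0.023) and the groups overlapped. That call was lost without WT heart 3, KO heart 1 or KO heart 3 (highest adjusted p = 0.075), and without both shallow WT hearts (-0.63, adjusted p = 0.109).

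Dnajb11, the J-domain co-chaperone ERdj3, which hands unfolded chains to BiP, moved the other way. It lies at chr16:22857845-22879634 on the plus strand (GRCm38). It had 21.3, 15.3, 15.7, 21.4 and 18.8 CPM in wild type and 29.0, 38.1, 37.7 and 38.7 in the labelled knockouts. The groups were well apart, with KO heart 1 the nearest to wild type. Dnajb11 rose by 0.92 ± 0.14 in both fits on the log2 scale (edgeR adjusted p = 0.00013 in the counts and 0.00017 with trends removed) and by 0.99 in centred FPKM (limma adjusted p = 0.00024). Its transcript GC content of 50.5% lies near the median of tested genes, 50.35%.

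Hyou1, an Hsp110-type exchange factor that resets BiP, had 37.9, 40.6, 41.8, 39.9 and 41.6 CPM in wild type and 57.2, 53.4, 67.6 and 81.1 in the labelled knockouts. The wild-type hearts were within a few CPM of each other and all labelled knockout hearts were above them. Hyou1 rose by 0.69 ± 0.13 (edgeR adjusted p = 0.00062) and by 0.39 ± 0.12 with trends removed (adjusted p = 0.017). The second call was lost without KO heart 3 or KO heart 4 (highest adjusted p = 0.051).

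Ppib, the ER cyclophilin that isomerises proline bonds and is needed for collagen folding, had 5.02, 1.73, 4.44, 6.04 and 6.27 CPM in wild type and 9.88, 9.33, 8.14 and 12.3 in the labelled knockouts. The groups did not overlap. Ppib rose by 0.97 ± 0.23 (edgeR adjusted p = 0.0027), by 0.66 with trends removed (adjusted p = 0.027) and by 1.12 in centred FPKM. WT heart 2 had only 5 Ppib reads. An exon of Snx22 on the opposite strand covers 825 bases of the Ppib exons. The unstranded libraries cannot tell those reads apart, so the level and the fold change of Ppib are uncertain. Snx22 was at 0.64 ± 0.34 and did not pass (edgeR adjusted p = 0.130), in the same direction as Ppib. The call with trends removed was lost without WT heart 1 or KO heart 4 (highest adjusted p = 0.076), and without both shallow WT hearts (adjusted p = 0.056).

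Sdf2l1, a subunit of the ERdj3 complex, was scarce, with 8 to 75 reads per heart. It had 1.26, 2.78, 2.37, 1.41 and 1.74 CPM in wild type and 3.18, 1.81, 3.79 and 5.15 in the labelled knockouts. KO heart 2 lay inside the wild-type range. Sdf2l1 was called higher in the counts (1.05 ± 0.33, edgeR adjusted p = 0.014), and that call was lost without WT heart 1 or KO heart 4 (highest adjusted p = 0.051). It was not called with trends removed (0.45, adjusted p = 0.304). Dnajc3 (P58IPK), an inhibitor of PERK that also serves BiP, and the secreted factor Manf were at -0.18 and -0.20 and did not pass. With trends removed Dnajc3 was 0.37 (adjusted p = 0.052; called at 0.0092 without KO heart 4) and Manf -0.27 (adjusted p = 0.255).

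Disulfide enzymes had 4 of 6 members higher (66.7%) and none lower, in both fits, and the same 4 genes passed in each. In the counts, leaving out 1 heart cost Pdia4 its call in 8 of 9 fits and Ero1l in 1 of 9 (below). Over all tested genes 26.2% were called higher in the counts, 18.6% with trends removed, and 26.7% in either direction with 1 sign in both. No difference between classes was tested. Pdia6, a protein disulfide isomerase that also attenuates IRE1, lies at chr12:17266545-17284770 on the plus strand (GRCm38). It had 36.3, 29.8, 34.1, 38.7 and 38.2 CPM in wild type and 65.4, 58.1, 60.3 and 55.3 in the labelled knockouts. Each labelled knockout heart was above each wild-type heart. Pdia6 rose by 0.74 ± 0.12 (edgeR adjusted p = 0.00014), by 0.85 ± 0.099 with trends removed (adjusted p = 3.8e-05) and by 0.80 in centred FPKM (limma adjusted p = 0.00034).

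Creld2 is an ER-resident protein with isomerase activity and a known target of ATF6. It lies at chr15:88819646-88826683 on the plus strand (GRCm38). Its values were 5.29, 2.43, 3.55, 5.90 and 4.30 CPM in wild type and 10.7, 10.2, 11.1 and 14.2 in the labelled knockouts, with no overlap. Creld2 rose by 1.30 ± 0.20 (edgeR adjusted p = 0.00013), the largest rise of the disulfide class, by 0.87 with trends removed (adjusted p = 0.0022) and by 1.23 in centred FPKM (limma adjusted p = 0.00025). WT hearts 2 and 3 had 7 and 12 reads.

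Ero1l, the oxidase that recharges protein disulfide isomerase, had 4.53, 2.43, 2.07, 4.07 and 3.83 CPM in wild type and 5.84, 5.18, 5.97 and 5.87 in the labelled knockouts. The groups did not overlap, although both shallow WT hearts, with 7 reads each, gave the lowest values. Ero1l rose by 0.62 ± 0.21 (edgeR adjusted p = 0.020), and by 1.25 ± 0.21 with trends removed (adjusted p = 0.00047). Its GC content is low, 41.6%, but both trends were removed in the same fit, so the part of each was not told apart. In the first fit the call was lost without KO heart 3 (adjusted p = 0.052) and without both shallow WT hearts (0.45, adjusted p = 0.052), and the centred FPKM change of 0.18 missed the threshold (limma adjusted p = 0.168).

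Pdia4, a protein disulfide isomerase with an extra thioredoxin-like domain, had 18.96, 24.3, 25.2, 21.4 and 23.3 CPM in wild type and 27.6, 26.1, 29.4 and 27.9 in the labelled knockouts. The groups were apart by a small margin. The change was 0.31 ± 0.13 (edgeR adjusted p = 0.049), and that call was lost in 8 of 9 fits that left out 1 heart (all but WT heart 3; highest adjusted p = 0.136) and in the robust edgeR fit (adjusted p = 0.052). With trends removed Pdia4 rose by 0.55 ± 0.12 (adjusted p = 0.0032), a call that held without any single heart. P4hb, the founding isomerase and a subunit of collagen prolyl hydroxylase, was at 0.15 ± 0.13 (adjusted p = 0.337), and Pdia3, the isomerase that works with calnexin and calreticulin, at -0.27 ± 0.17 (adjusted p = 0.198). Both changed sign with trends removed, to -0.13 and 0.035, and passed in neither fit.

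**Figure D2:**
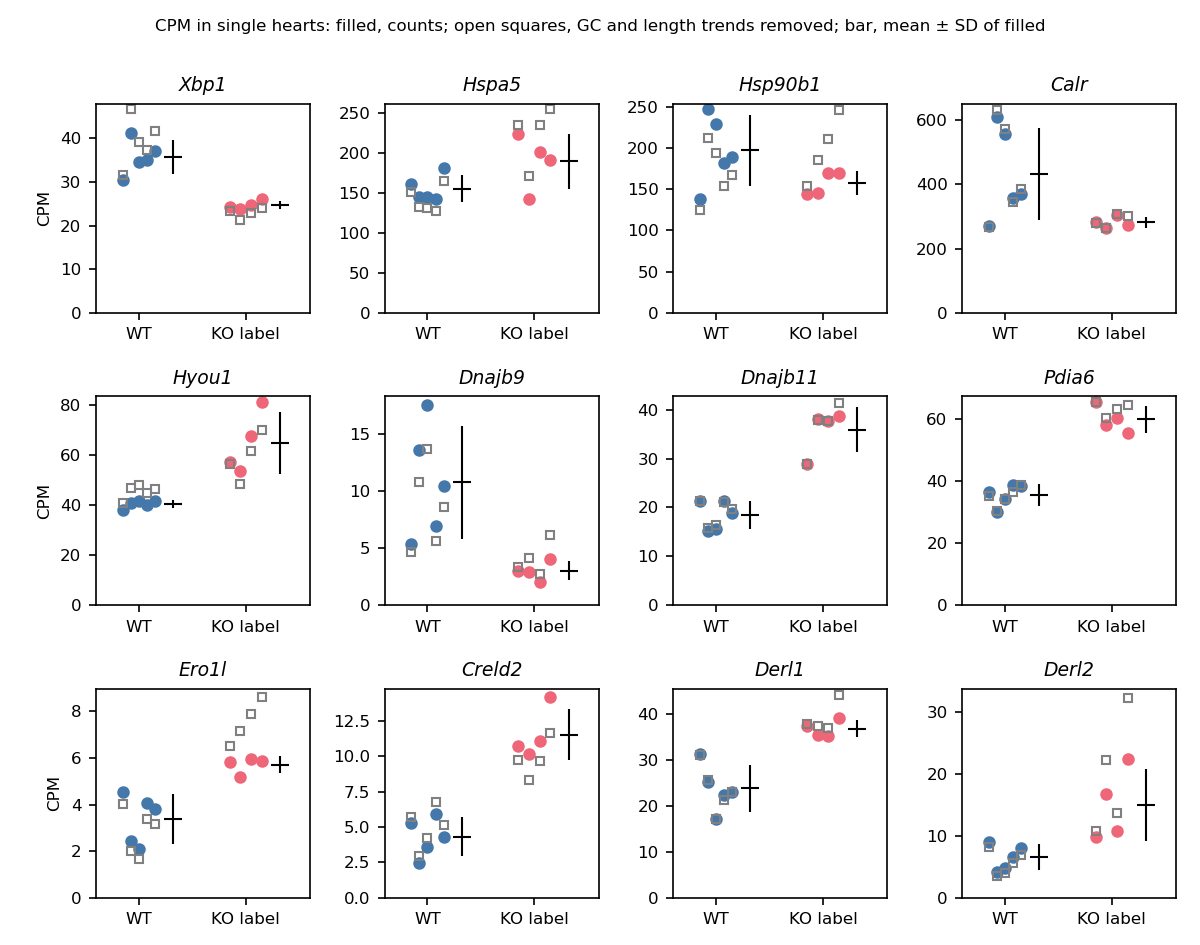
CPM in each heart for 12 of the genes, with filled points for the counts (blue, wild type; red, labelled knockout), open grey squares for the same hearts with GC and length trends removed, and bars for mean ± SD of the filled points. In Xbp1, Hyou1, Dnajb11, Pdia6, Ero1l, Creld2, Derl1 and Derl2 the groups do not overlap on either scale. Calr and Dnajb9 show WT hearts 2 and 3 above the other wild-type hearts.

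Degradation parts had 3 of 8 members higher (37.5%, beside 26.2% of all genes) and none lower in the counts. With trends removed likewise 3 were higher (37.5%, beside 18.6% of all genes) and none lower, with Derl1 and Derl2 in both. Derlins are membrane proteins of the channel through which failed proteins leave the ER. Derl1 had 31.4, 25.3, 17.2, 22.3 and 23.0 CPM in wild type and 37.3, 35.5, 35.3 and 39.2 in the labelled knockouts. The groups did not overlap. Derl1, at chr15:57869502-57892448 on the minus strand (GRCm38), rose by 0.61 ± 0.15 (edgeR adjusted p = 0.0034), by 0.70 with trends removed (adjusted p = 0.0019) and by 0.63 in centred FPKM. A pseudogene, Gm35638, matches its transcript over 634 bases at 95.4% identity, so part of its reads could be shared.

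Derl2 had 9.06, 4.16, 4.74, 6.60 and 8.01 CPM in wild type and 9.88, 16.7, 10.7 and 22.3 in the labelled knockouts. KO hearts 2 and 4 were far above KO hearts 1 and 3, which lay just above wild type. Derl2, at chr11:71007164-71019841 on the minus strand, rose by 1.09 ± 0.26 (edgeR adjusted p = 0.0027), by 1.68 ± 0.30 with trends removed (adjusted p = 0.00068), the largest rise of the 31 in that fit, and by 0.76 in centred FPKM. On the opposite strand Mis12, a kinetochore gene, overlaps 231 bases of Derl2 exons. Mis12 was lower in the labelled knockouts (-1.41 ± 0.20, adjusted p = 7.4e-05), the opposite direction to Derl2.

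The EDEM proteins are mannosidase-like and mark misfolded glycoproteins for removal. Edem2 had 4.57, 2.08, 3.55, 3.09 and 2.32 CPM in wild type and 4.09, 6.56, 6.22 and 6.66 in the labelled knockouts. KO heart 1 lay inside the wild-type range and the other three above it. Edem2 rose by 0.82 ± 0.24 (edgeR adjusted p = 0.00997), and was 0.57 with trends removed, where it did not pass (adjusted p = 0.054) unless WT heart 1 or KO heart 1 was left out (lowest adjusted p = 0.017). Edem3 had 15.9, 16.7, 11.6, 16.4 and 16.8 CPM in wild type and 17.2, 13.01, 17.4 and 14.4 in the labelled knockouts. Its groups overlapped and the change was -0.0062 ± 0.15 (adjusted p = 0.977). With trends removed the groups were apart and Edem3 passed as higher (0.57 ± 0.13, adjusted p = 0.0043), and this held without any single heart. Edem3 has a low GC content, 43.5%.

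The ubiquitin ligase Syvn1 (HRD1), its partner Sel1l, the ER membrane protein Herpud1 and Edem1 were called in neither fit. Their log2 fold changes ran from -0.22 for Edem1 to 0.28 for Syvn1 in the counts and from -0.29 for Syvn1 to 0.21 for Sel1l with trends removed. Each of these 4 had the opposite sign in the other fit. Without KO heart 4, which had 44.7 CPM of Syvn1 where the other labelled knockout hearts had 27.0 to 29.6, Syvn1 was called lower with trends removed (-0.38, adjusted p = 0.045).

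At the entry channel, Sec61b, a small subunit of the Sec61 translocon at chr4:47474658-47483242 on the plus strand, had 2.33, 3.12, 0.889, 1.83 and 1.05 CPM in wild type and 5.27, 3.91, 4.45 and 5.51 in the labelled knockouts. The groups did not overlap, but WT heart 3 had only 3 reads and WT hearts 2 and 5 had 9 each. Sec61b had the largest rise of the 31 in the counts, 1.37 ± 0.27 (edgeR adjusted p = 0.00082), and was at 1.01 with trends removed (adjusted p = 0.0086), where the groups overlapped. Ssr1, a subunit of the translocon-associated complex, had -0.26 ± 0.12 and did not pass (adjusted p = 0.080), although its groups were apart, with 29.7 to 37.0 CPM in wild type and 25.3 to 27.1 in the labelled knockouts. With trends removed it was 0.29 (adjusted p = 0.063), and it was called higher there without WT heart 3 or KO heart 1 (lowest adjusted p = 0.030).

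**Figure D3:**
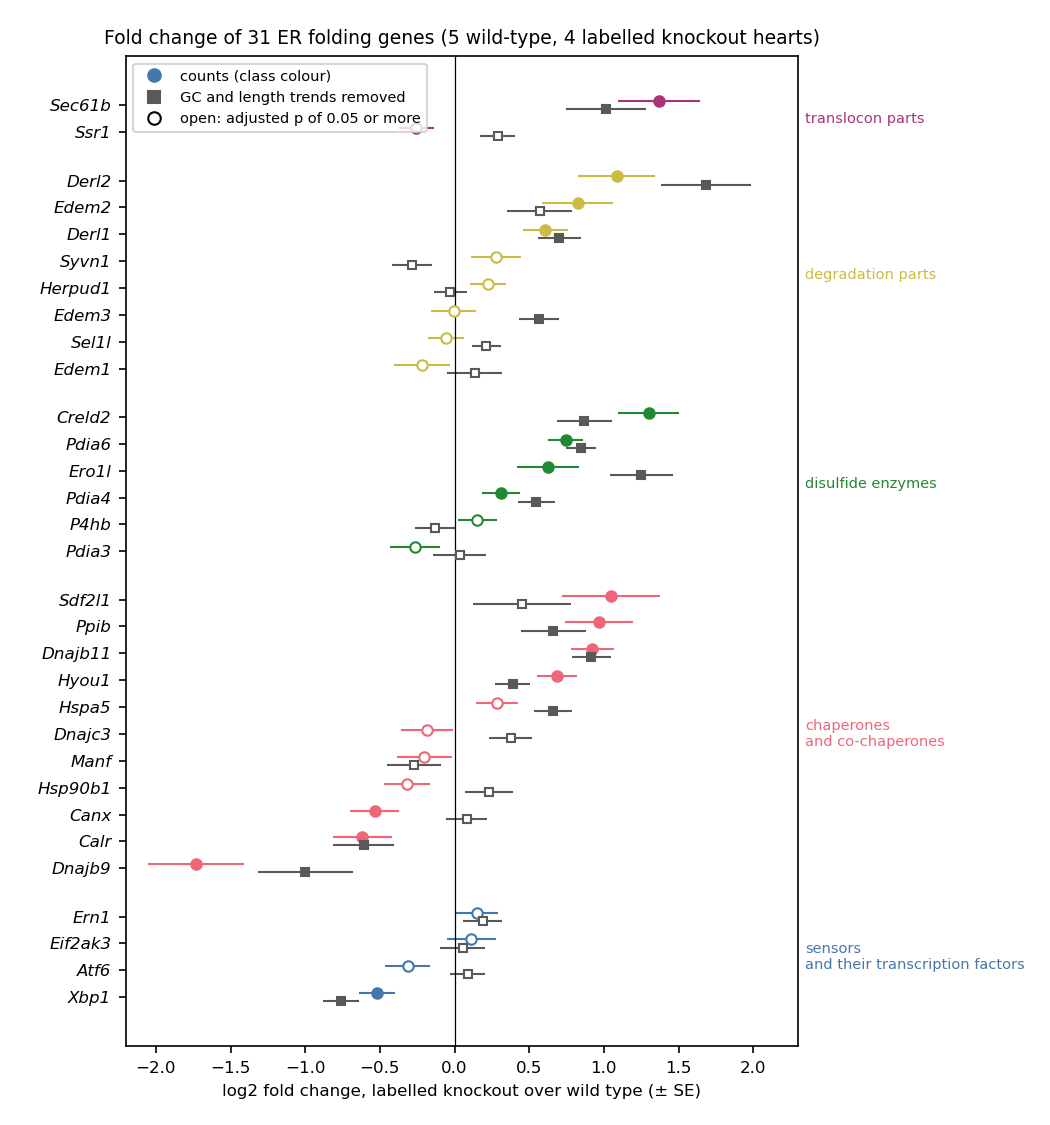
Log2 fold change (labelled knockout over wild type, ± SE) of each gene by class, with circles for the counts, grey squares for the fit with GC and length trends removed, and open symbols for an adjusted p of 0.05 or more. Filled circles and filled squares fall on the same side of 0 in 13 genes, 10 higher and 3 lower.

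Groups did not overlap in 13 of the 31 genes (41.9%), which is close to the 41.6% of all tested genes, and again in 13 with trends removed, beside 31.6% of all tested genes. Summed by class, the sensors with Xbp1 came to 141.6 to 164 CPM in wild type and 99.5 to 140.8 in the labelled knockouts, apart by under 1 CPM. The disulfide enzymes came to 217 to 278 and 261 to 315 CPM, which overlapped. The degradation parts came to 231 to 264 and 269 to 313 CPM, without overlap, but as a share of non-mitochondrial reads they took 0.0368 to 0.0414% and 0.0386 to 0.0468%, which overlapped. On that scale the sensors with Xbp1 stayed apart, at 0.0228 to 0.0255% and 0.0141 to 0.0210%. In uncentred FPKM their sums overlapped, at 23.9 to 34.6 in wild type and 28.7 to 39.15 in the labelled knockouts. Atf6 made up most of each CPM sum, and its change was 0.088 with trends removed. No class sums were made with trends removed, so the separation is shown only on scales that keep the GC trend. The chaperones came to 848 to 1396 and 858 to 986 CPM, where Calr, Hsp90b1 and Canx gave the high sums of WT hearts 2 and 3. These sums are descriptions and were not tested.

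Across the 31 genes the fold change rose with the GC content of the transcript (Spearman rho 0.44), and rho was -0.12 with trends removed. The genes share the same 9 libraries, and over all tested genes rho was 0.61. Low-GC genes such as Canx (42.2%), Dnajc3 (43.2%) and Edem3 moved upward when the trends were removed, and high-GC genes such as Syvn1 (57.4%), Sdf2l1 (56.7%) and Creld2 (54.8%) moved downward. Of the 31, 12 changed sign between the fits, and none was called in opposite directions. Derl2 and Ero1l went against the trend, as low-GC genes that were higher in the counts, and Xbp1, with a GC content of 52.98%, was lower in both.

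**Figure D4:**
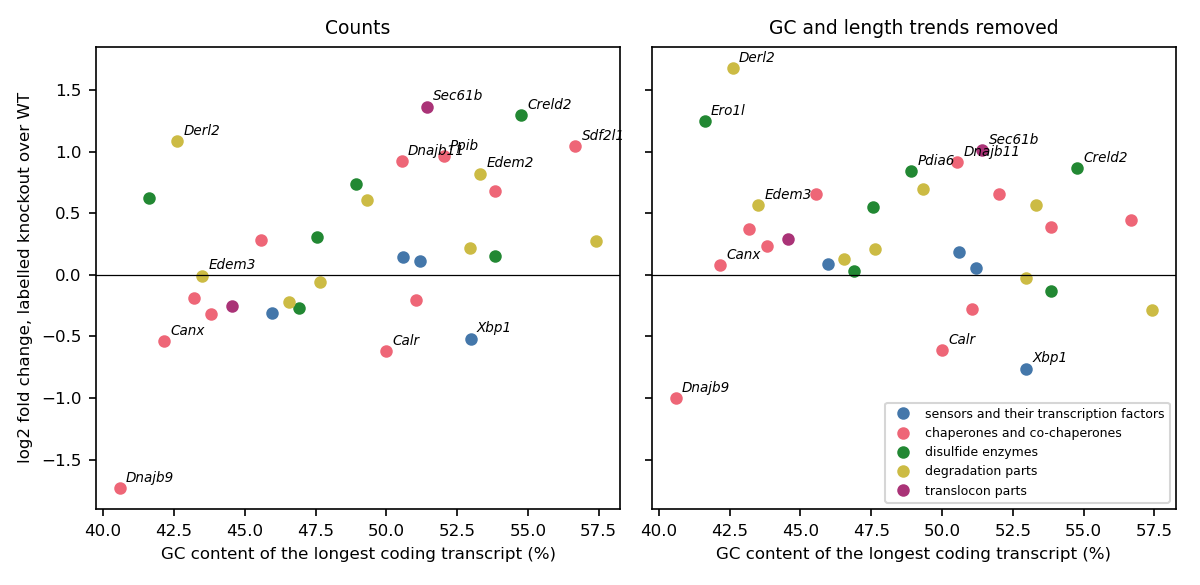
Log2 fold change of each gene against the GC content (%) of its longest coding transcript, coloured by class, from the counts (left) and with GC and length trends removed (right). On the left the points rise with GC content (Spearman rho 0.44, n = 31 genes), and on the right they do not (rho -0.12).

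Beyond the 31, a wider list of the pathway held 109 genes in the table, of which 106 were tested. Of these 33 rose (31.1%, beside 26.2% of all genes) and 26 fell (24.5%, beside 25.2%), with a median log2 fold change of 0.043. With trends removed 28 rose (26.4%, beside 18.6% of all genes) and 21 fell (19.8%, beside 19.5%). Passing both fits with 1 sign were 20 higher and 15 lower genes, together 33% of the 106, beside 26.7% of all genes. Downstream of PERK, the transcription factor Ddit3 (CHOP) rose from 12.8 ± 0.240 CPM (SD, n = 5) to 26.3 ± 5.39 (n = 4; 1.04 ± 0.15, edgeR adjusted p = 6.7e-05), and was at 0.45 with trends removed (adjusted p = 0.012). The pseudokinase Trib3, a target of CHOP, rose from 0.831 ± 0.606 to 3.98 ± 0.902 CPM (2.12 ± 0.37, adjusted p = 0.00028), and was at 1.51 with trends removed. Trib3 was scarce, with 0 to 85 reads per heart and 0 CPM in WT heart 3. Also of the PERK arm, Atf4 (0.097, adjusted p = 0.605), Ppp1r15a (0.33, adjusted p = 0.072) and Ppp1r15b (0.12, adjusted p = 0.491) were not called in the counts. With trends removed they were at -0.26, -0.092 and 0.28 and again not called. The activity of PERK was not measured. The ER-membrane transcription factors Creb3l1 and Creb3l2 fell, by 1.05 and 0.47 in the counts and by 1.73 and 0.35 with trends removed.

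Among other folding factors 12 of 30 rose (40%) and 7 fell (23.3%) in the counts. With trends removed 9 rose (30%) and 6 fell (20%). Over all tested genes 26.2% were called higher and 25.2% lower in the counts, and 18.6% and 19.5% with trends removed. Prkcsh, the regulatory subunit of glucosidase II, which trims sugars for the lectin cycle, rose by 1.20 (0.64 with trends removed), and the calcium-binding protein Rcn3 by 1.33 (0.57). The J-domain proteins Sec63, which recruits BiP to the channel, and Dnajc1 fell by 0.93 and 0.80 (-0.35 and -0.64 with trends removed). Of 15 other disulfide enzymes 5 rose (33.3%) and 3 fell (20%) in the counts, and 7 rose (46.7%) and 1 fell (6.67%) with trends removed. The sulfhydryl oxidase Qsox1 rose by 1.10 (0.63) and Erp29, a PDI-like protein without the usual active site, by 0.96 (1.35).

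Other degradation parts were divided, with 8 of 21 higher (38.1%, beside 26.2% of all genes) and 7 lower (33.3%, beside 25.2%) in the counts. With trends removed 4 were higher (19%, beside 18.6%) and 5 lower (23.8%, beside 19.5%). The ubiquitin-conjugating enzyme Ube2g2 rose by 0.87 (0.49 with trends removed) and Ubxn6, a cofactor of the p97 ATPase, by 0.80 (0.44). The lectin Erlec1 fell by 1.26 (-0.55) and the ubiquitin ligase Rnf185 by 0.92 (-0.88). At the channel and the sugar-adding complex, 3 of 26 rose (11.5%) and 6 fell (23.1%) in the counts. With trends removed 5 of these rose (19.2%) and 6 fell (23.1%). The small membrane protein Serp1 rose from 3.26 ± 0.601 to 6.92 ± 0.873 CPM (1.09 ± 0.20, edgeR adjusted p = 0.00041) and was at 1.73 with trends removed, while Dad1, a subunit of the oligosaccharyltransferase, fell from 110 ± 17.6 to 34.7 ± 10.4 CPM (-1.66 ± 0.20, adjusted p = 2.1e-05; -1.39 with trends removed). Rpn2, another subunit of that complex, rose by 0.57 (0.36 with trends removed), and the channel subunit Sec61a2 fell by 1.21 (-0.87).

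In bulk tissue, fewer cells of a type and less RNA per cell cannot be told apart. The 11 cardiomyocyte markers summed to 71500 to 81520 CPM in wild type and 86930 to 99820 in the labelled knockouts, with 4 higher and 2 lower. Secretory cells other than muscle carry much ER. The 8 fibroblast markers summed to 552 to 717 CPM and 591 to 1052 CPM, with 3 higher and 3 lower, and the 7 endothelial markers to 733 to 873 and 656 to 781, with 2 higher and 2 lower. Mural markers (7) came to 841 to 1082 and 826 to 1217 CPM, with 3 higher and 2 lower. Macrophage markers (6 in the table) came to 122 to 164 and 137 to 173, with 2 higher and 2 lower. Plasma and B cell markers (6, of which 3 were tested and 1 was lower) came to 6.53 to 9.71 and 8.02 to 9.15, with Igj, the plasma cell joining chain, at 0 to 3 reads. The 4 atrial markers came to 23.7 to 43.4 and 134 to 478 CPM. Nppa, which ventricles also make under load, had 73 to 910 reads in wild type and 2807 to 6611 in the labelled knockouts, while Sln had 0 to 4 reads and Myl7 0 to 19. Of the erythroid markers Hba-a1 and Hbb-b1 were at 0 in every heart. The marker splits above are from the counts, where 51.4% of all tested genes were called, 26.2% higher and 25.2% lower. With trends removed, 2 cardiomyocyte markers were higher and 2 lower, and of the fibroblast markers 1 was higher and 2 lower. In that fit the endothelial markers had 2 higher and 1 lower, the mural 2 and 0, and the macrophage 0 and 2. Over all tested genes 18.6% were called higher and 19.5% lower with trends removed. The part of these cell types in the changes of ER genes was not tested.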

How the data were processed

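Poly(A) RNA was sequenced as single-end, unstranded libraries, per the labels' protocols. The authors deposited read counts per gene for 9 hearts (4415183 to 20827699 reads) and FPKM values for the same hearts. The submitters' processing notes name Bowtie2, TopHat, TopHat2 2.0.10, HTSeq, DESeq, edgeR, Cufflinks 2.1 and mm10. The annotation and settings were not stated there. Low depth, as in WT hearts 2 and 3, limits scarce genes most.

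Counts were tested with edgeR 4.0.16 in R 4.3.3 (quasi-likelihood F test, TMM, default filter by group with at least 10 reads and 15 in total, no covariates, Benjamini-Hochberg adjustment over all tested genes). A robust version of this fit was run first. The version without it was adopted after the calls of both had been seen, and the choice moves calls: Pdia4 is called in the counts only without it (15 ER genes called with it, 16 without), and Dnajc3 is called with trends removed only with it (16 with, 15 without). CPM are reads over the TMM-scaled library size. FPKM were tested as log2(FPKM + 1) with limma 3.58.1 (trend and robust) where the gene's mean reached 0.5, which understates changes of low genes. The planned FPKM test was uncentred; median-centred values are quoted because a shift of the whole scale was seen. Fold changes are labelled knockout over wild type, and SEs derive from the F statistic. Trends were removed with lowess fits (span 0.3) to the log2 deviations of a heart, on GC content and then length of the longest coding GENCODE vM21 transcript (99.2% of tested genes), used as offsets. This also removes biological differences that follow either.

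Alternatives were RLE and upper-quartile factors, other filters, DESeq2 1.42.0, limma-voom (quality weights), leaving out hearts, a replicate block, thinned counts and other FPKM settings. Chosen after seeing the data were hearts left out with trends removed and the robust fit. The procedures were tested on simulated counts with far fewer changed genes than were called here and no GC or length trend put in. The simulation therefore did not test the removal of trends such as those of these libraries. The genes and lists were chosen with earlier results of these data known. The naming rule gave values in every heart for the sensors, Hspa5, Hsp90b1, genes called in the counts with 1 sign in both fits and called genes whose sign turned, and up to 2 genes per direction for each class of the wider list. Other uncalled genes with single-heart exceptions (Dnajc3, Syvn1, Ssr1), overlapping genes, and Atf4, Ppp1r15a and Ppp1r15b were named after their values were seen.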

Additional observations from a re-analysis of the deposited data

Results flagged for a closer look

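In 62 groups (31 genes in 2 genotypes), 6 held a heart set apart by more than the 95% limit of Dixon's test, which chance passes in about 1 in 20 groups. Dnajb11 in KO heart 1 was at 29.0 CPM, below the next at 37.7. Ero1l in KO heart 2 was at 5.18 CPM, below 5.84. Syvn1 in KO heart 4 was at 44.7 CPM, above 29.6. Edem2 in KO heart 1 was at 4.09 CPM, below 6.22. Edem3 in WT heart 3 was at 11.6 CPM, below 15.9. Ssr1 in WT heart 3 was at 37.0 CPM, above 31.1.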

How the results depend on the processing

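Between 13 and 20 of the 31 ER genes were called in the counts under the alternatives run, and between 14 and 21 in FPKM. The 4 lower calls became 2 without both shallow wild-type hearts and 7 at an adjusted p of 0.1, and ran from 4 to 5 with 1 heart left out. With trends removed, the 3 lower calls became 1 without both shallow hearts and ran from 1 to 3 with 1 heart left out, and the 12 higher calls ran from 11 to 14. In the robust edgeR fit 11 were higher and 4 lower, with Pdia4 lost, and with trends removed 13 were higher and 3 lower, with Dnajc3 gained (adjusted p = 0.049). With trends removed 12 of the 31 genes turned sign, of which Canx (0.081) and Edem3 (0.57) were called in one of the fits and 10 in neither. Between uncentred and centred FPKM 13 turned sign, of which Eif2ak3 (-0.052), Xbp1 (-0.43), Canx (-0.43) and Ssr1 (-0.26) were called on one of the scales and 9 on neither. The cause was not tested. Deviations of same-numbered hearts had correlations from -0.26 to 0.041. WT heart 2 and KO heart 2 were each other's best match, and no other number had such a match. The labels do not say whether the numbers pair hearts, and these correlations cannot decide it. With a replicate block 13 ER genes, 44 other pathway genes and 5030 genes in all were called in the counts, and 18 ER genes and 5989 in all in FPKM. Depth limits Sec61b, Ppib, Edem2, Ero1l, Creld2 and Sdf2l1, which had under 10 reads in at least 1 heart.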
